A study of Mus musculus with 6 samples.

Results

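Sterol regulatory element-binding proteins (SREBPs) and the genes of cholesterol and fatty acid synthesis were examined as 36 named mouse genes in peritoneal macrophages exposed to LPS with or without the MEK inhibitor trametinib. All 36 were found among the 25044 genes of the count table, and the 34 with 60 or more counts summed over the 6 libraries were used. They fell into a sterol arm of 17 enzymes, a sterol carrier (Stard4), 7 regulators (the SREBP genes and those of SREBP processing) and a fatty acid arm of 9 genes. The elongase gene Elovl6 and the desaturase gene Fads2, with 9 and 45 counts in all, were set aside, and the lowest gene kept was Scd1 with 116. The cells were thioglycollate-elicited macrophages of wild type C57BL/6 mice aged 8 weeks, taken 3 days after the injection and kept in culture for 24 h after adhering for 1 h. The vehicle group received DMSO and the other group 100 nM trametinib, which blocks the kinases that activate ERK. After 2 h both groups received LPS, a bacterial ligand of TLR4, at 100 ng/ml for 12 h. Each group had 3 libraries, the study names 3 mice in all, and no culture went without LPS, so every value describes LPS-treated cells.

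Cells make cholesterol from acetyl-CoA through mevalonate, squalene and lanosterol, and they make fatty acids from the same precursor. When the membrane of the endoplasmic reticulum is poor in sterols, the escort protein SCAP carries the SREBP precursors to the Golgi, where the site-1 and site-2 proteases release the active factor. INSIG proteins hold SCAP back when sterols are plentiful. SREBP2, encoded by Srebf2, mainly drives sterol genes, and the SREBP1 forms encoded by Srebf1 mainly drive fatty acid genes. In macrophages the pathway is known to be remodelled by Toll-like receptor signalling.

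Library totals lay between 17453778 and 19648467 counts. Levels are given in CPM, the count of a gene relative to the TMM-scaled total of its library. Differences were tested with edgeR's quasi-likelihood test over 11286 genes, and each FDR below is the Benjamini-Hochberg adjusted p-value from that fit, with the threshold at 0.05. The labels do not tie libraries to animals, so p values measure the spread between these libraries, which may be technical. Vehicle replicate 3 stood apart on the leading principal component, at −16.2 against −39.3 and −38.1 for the other vehicle libraries and 26.4 to 35.5 for the trametinib libraries. Summed over 6 macrophage markers, the libraries held 14470 to 15850 CPM with vehicle and 13310 to 14670 with trametinib, and 2 of the 6 (Adgre1 and Itgam) fell while 1 (Mertk) rose. Most of this sum was Lyz2, with means of 10170 CPM with vehicle and 9719 with trametinib. The Itgam call passed in 6 of 13 alternatives, with FDRs up to 0.134, and the calls of Adgre1 and Mertk passed in all 13. The 5 adipocyte markers summed to at most 0.0561 CPM with vehicle and 0.118 with trametinib, with Lep and Cfd at 0 counts in every library. Summed neutrophil markers lay at 4.32 to 7.23 CPM with vehicle and 4.29 to 8.86 with trametinib. The sum of 4 dendritic cell markers was higher in every trametinib library, at 2.34 to 3.92 CPM against 1.40 to 2.23. So was that of 4 mast cell markers, at 0.223 to 0.537 against at most 0.054, with the mast cell protease gene Mcpt4 at 0 counts throughout. The mast cell sum was mainly Cpa3, with 16 counts with trametinib and 1 with vehicle. Cma1 and Tpsb2 had 2 and 1 counts in all. No marker outside the macrophage list passed, though most were too low to be tested, and the part of these cells in the results was not tested. In bulk RNA, fewer cells of a type and less RNA per cell cannot be told apart.

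With trametinib, several control points of the pathway were lower and a single member was higher. Of the 34 genes, 11 fell, 1 rose and 22 did not pass. Those that fell were Srebf2, its escort gene Scap, the SCAP retention gene Insig1, the protease gene Mbtps2, the sterol enzymes Idi1, Fdft1, Sqle and Lss, the carrier Stard4, the fatty acid synthase gene Fasn and the elongase gene Elovl1. The riser was Acss2, which makes acetyl-CoA from acetate. The share called, 35.3%, lay near the 34.3% of all tested genes that were called. By direction, 32.4% of the members fell against 18.4% of all tested genes, and 2.94% rose against 15.8%. The members were chosen with earlier results of these data known, so such contrasts, here and below, are descriptions and not tests. The median log2 fold change of the members was −0.24, against −0.01 over all genes tested, and 26 of 34 lay below 0 where 50.8% of all genes did. Most of the changes were small, with 2 called members at 2-fold or more, Sqle and Acss2.

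**Figure D1:**
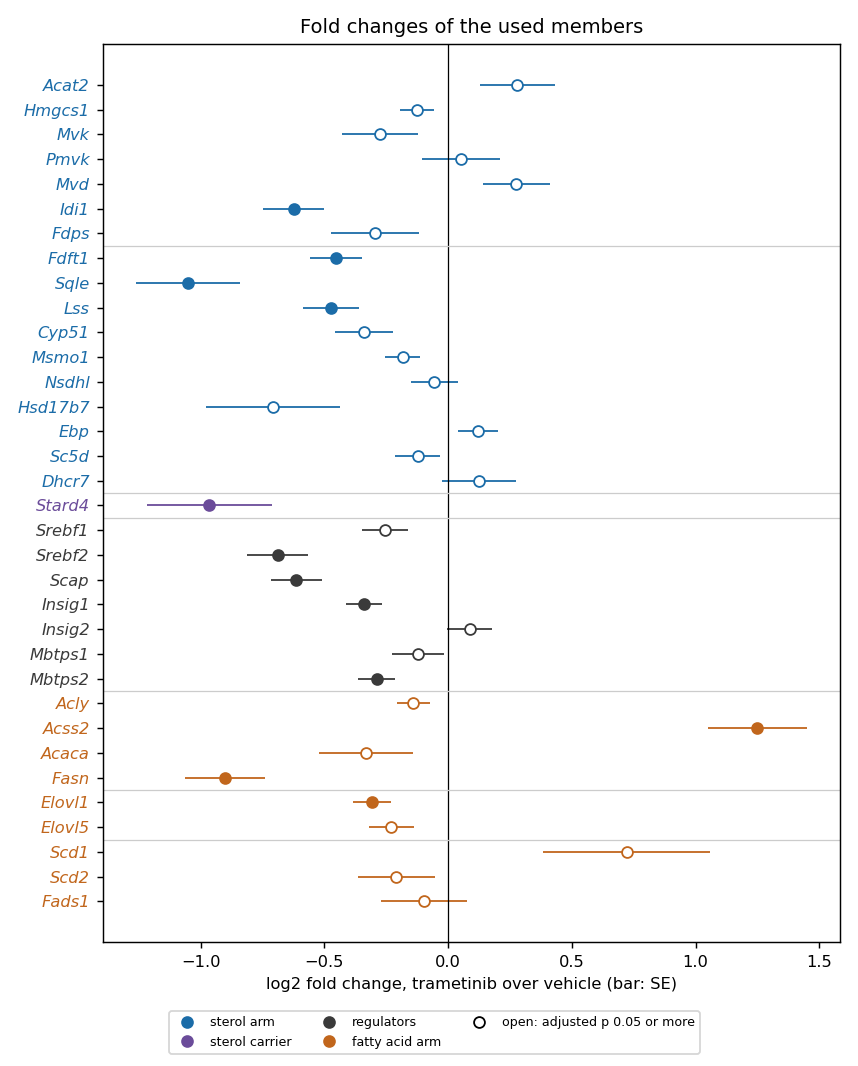
Log2 fold change of each of the 34 members, trametinib over vehicle, with its standard error; filled points passed at an FDR under 0.05 and open points did not. Filled points lie left of 0 for 11 genes, and Acss2 at 1.25 is the filled point to the right.

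The sterol and fatty acid arms had nearby medians. In the sterol arm the median log2 fold change was −0.18, and 4 of 17 genes fell (23.5%). Of these 17 genes 0 rose with edgeR, DESeq2 or limma-voom or at an unadjusted p under 0.05, and 1 (Mvd) rose with the replicate block and without vehicle replicate 3. In the fatty acid arm the median was −0.21, with 2 of 9 lower (22.2%) and 1 higher (11.1%). Leaving out each library in turn moved the sterol median between −0.21 and −0.13 and the fatty acid median between −0.26 and −0.14, so these ranges overlapped. The difference between the arms itself was not tested. The shares lower in both arms were near the 18.4% of all tested genes in this unpaired fit. With the replicate block, 6 of 17 sterol genes fell (Cyp51 and Hsd17b7 added) and 3 of 9 fatty acid genes (Elovl5 added), against 2525 of all 11286 genes. Among the 7 regulators the median was −0.29, and 4 fell (57.1%, against 18.4% of all tested genes). Of these 7 genes 0 rose, also at an unadjusted p under 0.05 and with DESeq2 or limma-voom. Log2 fold changes in the sterol arm ran from −1.05 (Sqle) to 0.28 (Acat2), and in the fatty acid arm from −0.90 (Fasn) to 1.25 (Acss2). Above the sterol range lay only Acss2 and Scd1 (0.72, FDR 0.130, on 116 counts), which did not pass. The other fatty acid genes lay within the sterol range. Without trametinib replicate 3, 4 of the 9 fatty acid arm genes fell, against 1957 of all 11435 genes tested in that fit. Without vehicle replicate 2, 1 of the 9 fell, against 1465 of 11442.

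**Figure D2:**
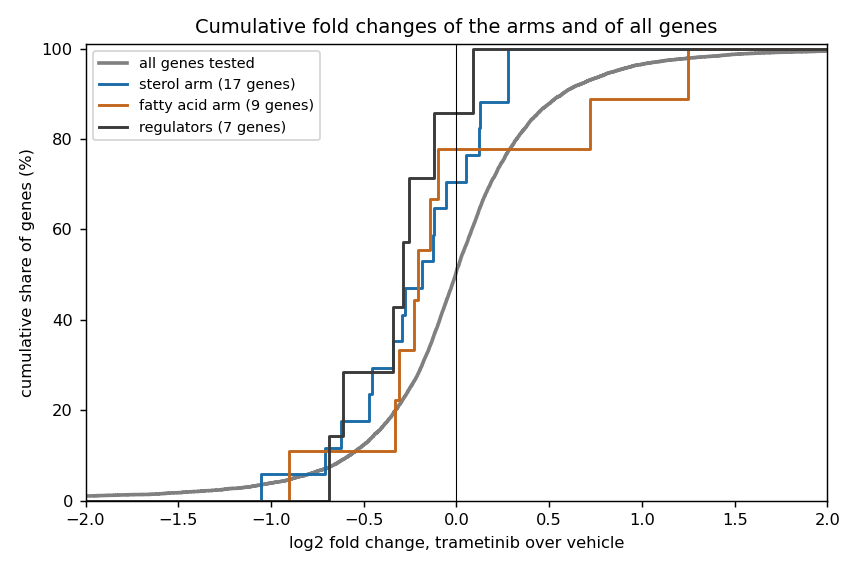
Cumulative share of genes (%) by log2 fold change, trametinib over vehicle, for the sterol arm, the fatty acid arm, the regulators and all 11286 genes tested (axis cut at −2 and 2). The 3 coloured curves cross the middle of the axis at medians of −0.18, −0.21 and −0.29, left of the grey curve of all genes, and the fatty acid curve ends at the 1.25 of Acss2.

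Summed CPM of the 17 sterol enzymes were 318.8, 312.4 and 362.7 in vehicle replicates 1 to 3 and 287.5, 278.6 and 298.2 with trametinib. The groups did not overlap in this sum, and vehicle replicate 3 was the highest library. Of the 17 enzymes, 13 were highest of the vehicle libraries in replicate 3, where 39.9% of all tested genes were. Summed CPM of the 9 fatty acid genes were 338.2, 361.8 and 346.2 with vehicle and 312.0, 305.3 and 317.0 with trametinib, again without overlap. In vehicle replicate 1, Acly held 125.1 and Elovl1 118.7 of these CPM, so the sum mainly follows these genes and not the whole arm. The ratio of the fatty acid sum to the sterol sum overlapped between the groups, at 1.06, 1.16 and 0.955 with vehicle and 1.09, 1.10 and 1.06 with trametinib. In single genes, the groups did not overlap in 22 of the 34 members, 19 of them lower with trametinib and 3 higher, where the groups did not overlap in 49.3% of all tested genes (25.9% lower and 23.4% higher). Libraries of the same replicate number may be paired, and 23 of the 34 members were lower with trametinib in all 3 pairs (67.6%) and 6 were higher in all 3 (17.6%), against 35.3% and 34.5% of all genes tested.

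**Figure D3:**
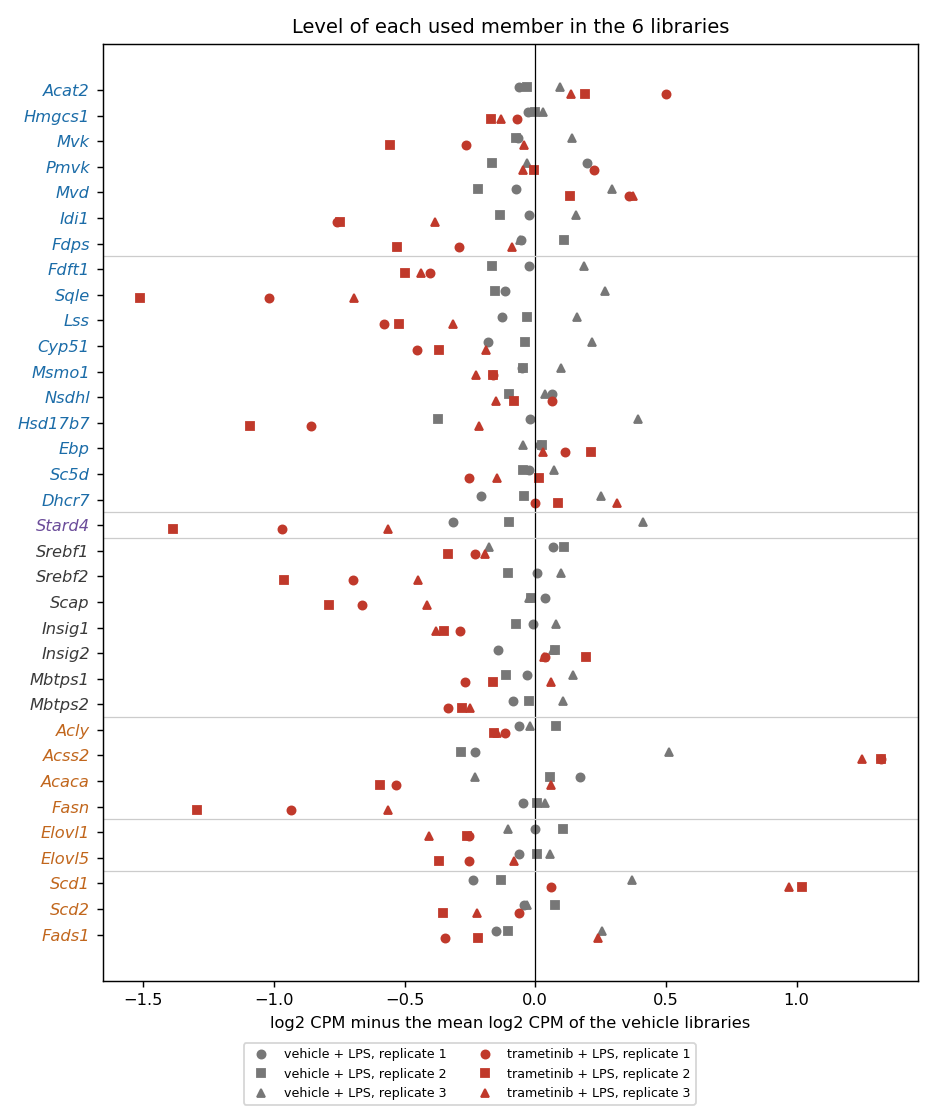
Level of each of the 34 members in the 6 libraries, as log2 CPM minus the mean log2 CPM of the vehicle libraries (grey, vehicle + LPS; red, trametinib + LPS; circle, square and triangle for replicates 1, 2 and 3). For Srebf2, Scap, Sqle, Fasn and Stard4 every red point lies left of every grey point, for Acss2 every red point lies right, and the triangles of replicate 3 lie to the right of the others in both groups for Sqle, Hsd17b7, Idi1, Stard4 and Srebf2.

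The promoter windows of the members were read to see which letters they share. RefSeq windows on GRCm38.p6, from 250 bases before to 50 after a transcription start, were matched for 27 of the 34 members, 6 of them with several starts. Not matched were Fdps, Fdft1, Sqle, Stard4, Scd1, Scd2 and Fads1. SREBPs bind sterol regulatory elements (SREs) and act with the CCAAT-binding factor NF-Y. Each motif was searched on both strands. The 9 letters TCACNCCAC, an SRE, were found in Hmgcs1 alone of the 27 members, and in 1.40% of 9031 tested genes with a window. The letters CCAAT were found in 22 of 27 members (81.5%), against 42.9% of those tested genes, 41.1% of all 27025 genes with a window and 37.4% of all 32851 windows. In the sterol arm 13 of 14 genes held CCAAT (all except Acat2), in the fatty acid arm 5 of 6 and among the regulators 4 of 7. The E-box CACGTG was found in 6 of 27 members (22.2%), against 12.1% of the tested genes. A shortened SRE of 7 letters, ATCACCC, chosen after the sequences were seen, was found in Srebf2, Fasn and Nsdhl (3 of 27, 11.1%), against 2.48% of the tested genes, and it overlapped no other motif searched. CCAAT stood in 6 of the 8 members that fell and have a window, in Acss2, which rose, and in 15 of the 18 that did not pass. These matches are descriptions of the letters, not shown sites. The 8 windows below show members of each kind: Hmgcs1, the holder of the SRE, which did not pass, Idi1, Lss, Srebf2, Insig1 and Fasn, which fell and hold CCAAT, Scap, which fell and holds none, and Acss2, which rose. Mbtps2, not shown, also fell and holds no CCAAT. The windows are written 5′ to 3′ on the gene's strand, with CCAAT (or ATTGG, its reverse complement) and both SRE forms in capitals.
Hmgcs1 (chr13:119690101-119690400, plus strand): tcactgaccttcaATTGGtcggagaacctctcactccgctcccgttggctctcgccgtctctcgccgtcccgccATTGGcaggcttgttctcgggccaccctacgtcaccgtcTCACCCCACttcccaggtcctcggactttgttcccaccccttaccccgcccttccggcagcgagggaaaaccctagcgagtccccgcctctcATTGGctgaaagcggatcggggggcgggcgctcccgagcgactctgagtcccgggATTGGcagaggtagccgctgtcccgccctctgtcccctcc
Idi1 (chr13:8885356-8885655, plus strand): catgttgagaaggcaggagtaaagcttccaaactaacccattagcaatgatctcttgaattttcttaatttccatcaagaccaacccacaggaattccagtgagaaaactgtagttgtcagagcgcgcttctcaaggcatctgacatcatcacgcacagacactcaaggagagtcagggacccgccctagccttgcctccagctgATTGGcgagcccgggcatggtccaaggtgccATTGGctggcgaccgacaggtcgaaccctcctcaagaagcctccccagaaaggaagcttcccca
Lss (chr10:76531355-76531654, plus strand): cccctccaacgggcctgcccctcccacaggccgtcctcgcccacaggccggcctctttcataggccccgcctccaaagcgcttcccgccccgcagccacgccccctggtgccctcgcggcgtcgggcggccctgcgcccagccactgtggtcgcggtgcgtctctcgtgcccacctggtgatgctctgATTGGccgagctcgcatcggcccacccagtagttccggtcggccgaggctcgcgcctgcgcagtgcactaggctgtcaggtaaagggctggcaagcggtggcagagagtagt
Srebf2 (chr15:82147019-82147318, plus strand): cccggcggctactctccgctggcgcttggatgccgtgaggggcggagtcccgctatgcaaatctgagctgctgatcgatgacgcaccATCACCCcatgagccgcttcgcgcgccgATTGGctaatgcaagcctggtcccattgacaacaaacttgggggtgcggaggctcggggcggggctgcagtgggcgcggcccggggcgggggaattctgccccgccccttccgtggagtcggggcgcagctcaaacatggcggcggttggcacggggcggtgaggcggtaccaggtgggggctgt
Insig1 (chr5:28071162-28071461, plus strand): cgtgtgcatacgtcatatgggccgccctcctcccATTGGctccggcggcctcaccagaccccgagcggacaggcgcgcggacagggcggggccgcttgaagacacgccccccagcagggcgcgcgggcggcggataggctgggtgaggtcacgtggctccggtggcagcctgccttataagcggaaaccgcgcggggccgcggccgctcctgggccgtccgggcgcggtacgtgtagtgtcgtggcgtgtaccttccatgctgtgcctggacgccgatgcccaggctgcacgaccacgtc
Scap (chr9:110333038-110333337, plus strand): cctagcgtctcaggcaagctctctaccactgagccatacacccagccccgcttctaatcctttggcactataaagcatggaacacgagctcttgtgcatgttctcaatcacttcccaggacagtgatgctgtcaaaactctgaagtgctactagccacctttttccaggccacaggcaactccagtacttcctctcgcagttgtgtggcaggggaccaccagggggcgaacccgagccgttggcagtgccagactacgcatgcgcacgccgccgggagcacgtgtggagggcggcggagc
Fasn (chr11:120824498-120824797, minus strand): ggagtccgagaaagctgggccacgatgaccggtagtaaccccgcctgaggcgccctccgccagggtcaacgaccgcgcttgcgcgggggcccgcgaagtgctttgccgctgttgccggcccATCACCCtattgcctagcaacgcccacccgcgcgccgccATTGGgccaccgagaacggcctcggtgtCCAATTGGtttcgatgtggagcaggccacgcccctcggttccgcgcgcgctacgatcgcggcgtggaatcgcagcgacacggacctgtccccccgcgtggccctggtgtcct
Acss2 (chr2:155517793-155518092, plus strand): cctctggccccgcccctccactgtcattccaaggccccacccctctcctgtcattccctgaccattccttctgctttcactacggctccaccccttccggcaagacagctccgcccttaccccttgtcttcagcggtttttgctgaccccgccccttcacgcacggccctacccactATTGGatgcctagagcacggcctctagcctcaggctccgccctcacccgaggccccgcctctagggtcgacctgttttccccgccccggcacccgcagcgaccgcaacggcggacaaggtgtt
In these windows Hmgcs1 held 4 CCAAT matches and the SRE, Fasn held 3 CCAAT matches, 2 of them overlapping in the run CCAATTGG, Idi1 held 2, Lss, Srebf2, Insig1 and Acss2 held 1 each, and Scap held none in either of its windows, of which 1 is shown. Of 46 CCAAT matches over all windows of the members, 29 began within 100 bases before the start.

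**Figure D4:**
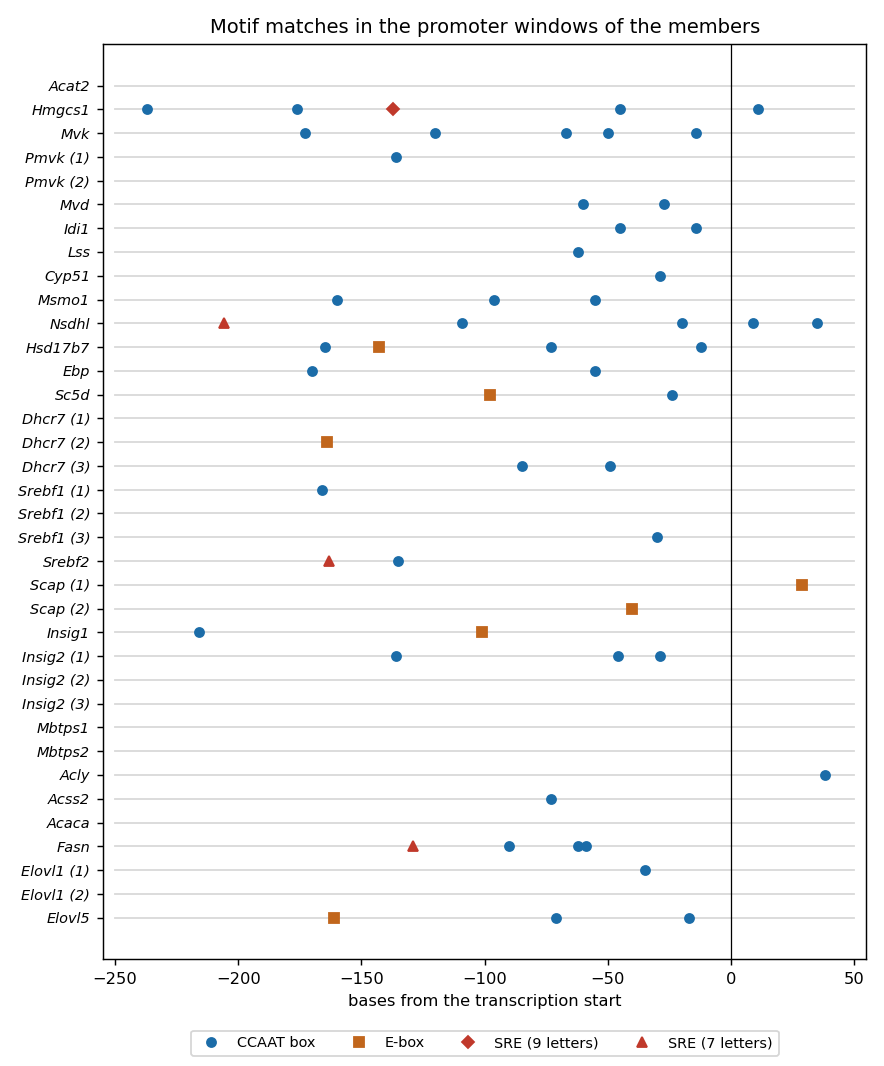
Positions of CCAAT, E-box and SRE matches (the first base of each, in bases from the transcription start) in the promoter windows of 27 members; a number in brackets tells apart the starts of a gene. CCAAT matches (blue) gather within 100 bases before the start in 18 members, and the 9-letter SRE (red diamond) appears in Hmgcs1.

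Of the 7 regulators, Srebf2, Scap, Insig1 and Mbtps2 fell (57.1%, against 18.4% of all tested genes), and Srebf1, Insig2 and Mbtps1 did not pass. Srebf2 (ENSMUSG00000022463, mm10 chromosome 15, 82147181 to 82205379), the gene of SREBP2, stood at 99.7, 92.5 and 106.4 CPM in the vehicle libraries and 61.3, 51.1 and 72.9 CPM in the trametinib libraries. All 3 trametinib libraries lay below every vehicle library. Its window above holds 1 CCAAT match and the 7 letters of the shortened SRE, which were chosen after the sequences were seen. Srebf2 fell by 0.69 on the log2 scale (SE 0.12, edgeR FDR 0.00425). Scap (ENSMUSG00000032485, chromosome 9, 110333288 to 110384950), the escort of both SREBPs, stood at 28.9, 27.9 and 27.7 CPM with vehicle and 17.8, 16.3 and 21.1 with trametinib, again without overlap. Its log2 fold change was −0.61 (SE 0.10, FDR 0.00252), the smallest FDR among the members. Insig1 (ENSMUSG00000045294, chromosome 5, 28071363 to 28078662), which retains SCAP and is itself a target of SREBP, stood at 40.6, 38.8 and 43.1 CPM with vehicle and 33.4, 32.0 and 31.4 with trametinib. It fell by 0.34 (SE 0.07, FDR 0.00800). The related Insig2, which is not driven by SREBP in the same way, had a log2 fold change of 0.09 (SE 0.09, FDR 0.496), and the groups overlapped.

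The proteases that cut SREBPs both pointed down. Mbtps2 passed and Mbtps1 did not, and the difference between them was not tested. Mbtps2 (ENSMUSG00000046873, chromosome X, 157535371 to 157598715), the site-2 protease, stood at 45.7, 47.7 and 52.3 CPM with vehicle and 38.5, 39.9 and 40.8 with trametinib, with no overlap (log2 fold change −0.29, SE 0.08, FDR 0.0174). Mbtps2 shares 28.4% of its exonic bases with Yy2, a gene on the same strand at 0 counts here. How reads in the shared stretch were counted is not given, so the level of Mbtps2 is uncertain. The Mbtps2 call was lost without trametinib replicate 1 (FDR 0.0782) or 2 (0.0517), with FDRs of 0.00894 to 0.0782 over the 13 alternatives. Mbtps1, the site-1 protease, had a log2 fold change of −0.12 (FDR 0.395) and overlapping groups. Srebf1 stood at 44.7, 46.0 and 37.7 CPM with vehicle and 36.4, 33.8 and 37.3 with trametinib, so the groups nearly touched. Its log2 fold change of −0.26 (SE 0.09) came with an FDR of 0.0595. Without vehicle replicate 3, the vehicle library nearest the trametinib group, the FDR of Srebf1 was 0.00585 with a log2 fold change of −0.34, and with all genes kept regardless of count it was 0.0464, with FDRs of 0.00585 to 0.194 over the 13 alternatives. The counts do not separate the SREBP1a and SREBP1c transcripts of Srebf1.

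Among the 7 mevalonate enzymes 1 fell (14.3%, against 18.4% of all tested genes) and 6 did not pass. With edgeR 0 rose, and 0 rose at an unadjusted p under 0.05 or with DESeq2 or limma-voom, though Mvd rose in 2 of 13 alternatives. Idi1 (ENSMUSG00000058258, chromosome 13, 8885501 to 8892451), the isomerase that makes the allylic building block of isoprenoids, stood at 24.4, 22.6 and 27.6 CPM with vehicle and 14.7, 14.8 and 19.0 with trametinib. The groups did not overlap, and replicate 3 was the highest library in each. It fell by 0.62 (SE 0.12, FDR 0.00525). Hmgcs1, HMG-CoA synthase, the enzyme that commits acetyl-CoA to this branch, stood at 38.2, 38.9 and 39.8 CPM with vehicle and 37.1, 34.6 and 35.6 with trametinib. Its groups did not overlap, but the difference was small (log2 fold change −0.12, SE 0.07, FDR 0.194). Acat2, which joins acetyl-CoA units, stood at 3.92, 4.01 and 4.37 CPM with vehicle and 5.79, 4.67 and 4.51 with trametinib (log2 fold change 0.28, FDR 0.187).

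Mvd, the decarboxylase before Idi1, pointed the other way from it. It stood at 25.4, 23.0 and 32.9 CPM with vehicle and 34.3, 29.4 and 34.8 with trametinib, and vehicle replicate 3 lay inside the trametinib range. Its log2 fold change of 0.28 (SE 0.14) came with an FDR of 0.151, which became 0.0327 with the replicate block and 0.00552 without vehicle replicate 3 (log2 fold change 0.44), with FDRs of 0.00552 to 0.388 over the 13 alternatives. The kinases Mvk and Pmvk had log2 fold changes of −0.28 and 0.05 (FDR 0.195 and 0.820). The sign for Pmvk turned without vehicle replicate 2 (−0.026) and without trametinib replicate 1 (−0.030). Fdps, which makes farnesyl diphosphate, had 3.14, 3.51 and 3.13 CPM with vehicle and 2.66, 2.26 and 3.06 with trametinib (log2 fold change −0.29, FDR 0.234). An annotated same-strand gene shares 26.7% of the exonic bases of Fdps, so its low level is uncertain.

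Of the 10 enzymes from squalene on, 3 fell (30%, against 18.4% of all tested genes) and 7 did not pass. With edgeR 0 rose, also at an unadjusted p under 0.05 and with DESeq2 and limma-voom. Sqle (ENSMUSG00000022351, chromosome 15, 59315077 to 59331192), squalene epoxidase, a rate-limiting oxygen-dependent step, stood at 18.6, 18.1 and 24.2 CPM with vehicle and 9.93, 7.04 and 12.4 with trametinib. Every trametinib library lay below every vehicle library. It fell from 20.3 ± 3.40 to 9.79 ± 2.69 CPM (mean ± SD of 3 libraries each), by 1.05 on the log2 scale (SE 0.21, edgeR FDR 0.00800), the largest fall among the 34 members. Lss (ENSMUSG00000033105, chromosome 10, 76531588 to 76557138), which folds the epoxide into lanosterol, stood at 14.5, 15.4 and 17.7 CPM with vehicle and 10.6, 11.0 and 12.7 with trametinib. It fell by 0.47 (SE 0.11, FDR 0.0126). The call for Lss was lost without trametinib replicate 1 (FDR 0.0593) or 2 (0.0543), with FDRs of 0.00409 to 0.0593 over the 13 alternatives.

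Fdft1 (ENSMUSG00000021273, chromosome 14, 63145150 to 63179578), squalene synthase, the first step committed to sterols, stood at 19.5, 17.7 and 22.6 CPM with vehicle and 15.0, 14.02 and 14.6 with trametinib. The groups did not overlap (log2 fold change −0.45, SE 0.10, FDR 0.0103). Fdft1 shares 18.3% of its exonic bases with Ctsb, a lysosomal protease gene on the opposite strand, at 13620 ± 1453 CPM with vehicle and 16350 ± 2208 with trametinib (SD, n = 3 per group). The strand setting of the counting is not given in the sources used here, so reads of the pair cannot be told apart, and Ctsb pointed up (log2 fold change 0.26, FDR 0.111) where Fdft1 fell.

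The enzymes after lanosterol did not pass in the reported fit, and the calls of Cyp51 and Hsd17b7 depended on the setting. Cyp51, lanosterol demethylase, stood at 20.96, 23.1 and 27.6 CPM with vehicle and 17.4, 18.4 and 20.9 with trametinib. The groups came near each other without overlap (log2 fold change −0.34, SE 0.12, FDR 0.0537). It passed with the replicate block (0.0103), with all genes kept regardless of count (0.0264), without vehicle replicate 1 (0.0400) or trametinib replicate 3 (0.0427), with FDRs of 0.0103 to 0.182 over the 13 alternatives. Hsd17b7, a sterol ketone reductase, stood at 9.81, 7.70 and 13.1 CPM with vehicle and 5.50, 4.67 and 8.57 with trametinib. Replicate 3 was the highest library of each group, and trametinib replicate 3 lay above vehicle replicate 2. Its log2 fold change of −0.71 (SE 0.27) came with an FDR of 0.0820, and 0.00281 with the replicate block, 0.0303 with DESeq2 and 0.0185 without trametinib replicate 3 (log2 fold change −1.005), with FDRs of 0.00281 to 0.226 over the 13 alternatives.

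Msmo1, the methyl oxidase of the same segment, stood at 57.3, 57.5 and 63.6 CPM with vehicle and 53.2, 53.1 and 50.8 with trametinib (log2 fold change −0.18, SE 0.07, FDR 0.0699). Nsdhl, Sc5d, Ebp and Dhcr7, which finish the decarboxylation, desaturation, isomerisation and reduction of the ring, had log2 fold changes of −0.06, −0.12, 0.12 and 0.13 (FDR 0.684, 0.325, 0.272 and 0.543). Stard4, a soluble carrier of cholesterol between membranes, stood at 8.46, 9.82 and 13.99 CPM with vehicle and 5.38, 4.03 and 7.12 with trametinib. No trametinib library reached the lowest vehicle library, and replicate 3 was again highest in both groups. Stard4 fell by 0.97 (SE 0.25, FDR 0.0223). The call was lost without trametinib replicate 1 (FDR 0.0788) or 2 (0.0665), with FDRs of 0.00111 to 0.0788 over the 13 alternatives.

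Of the 4 genes of acetyl-CoA supply and chain synthesis, Acss2 rose, Fasn fell, and Acly and Acaca did not pass. Acss2 (ENSMUSG00000027605, chromosome 2, 155517948 to 155585724), acetyl-CoA synthetase of the cytosol and nucleus, stood at 9.14, 8.81 and 15.3 CPM with vehicle and 26.8, 26.8 and 25.5 with trametinib. The trametinib libraries lay close together and far above the vehicle libraries, of which replicate 3 was the highest. It rose 2.38-fold, from 11.1 ± 3.65 to 26.4 ± 0.766 CPM (mean ± SD of 3 libraries each; log2 fold change 1.25, SE 0.20, edgeR FDR 0.00338). The neighbouring Gss, which shares 3.89% of the exonic bases of Acss2 on the opposite strand, had a log2 fold change of 0.08 (FDR 0.648). Fasn (ENSMUSG00000025153, chromosome 11, 120805846 to 120824547), fatty acid synthase, stood at 18.7, 19.5 and 19.9 CPM with vehicle and 10.1, 7.90 and 13.1 with trametinib. The vehicle libraries were nearly equal and the trametinib libraries all lower. Fasn fell by 0.90 (SE 0.16, FDR 0.00374).

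Acly, which makes acetyl-CoA from citrate, stood at 125.1, 137.8 and 128.8 CPM with vehicle and 120.3, 117.1 and 117.8 with trametinib, without overlap but with a small difference (log2 fold change −0.14, SE 0.07, FDR 0.131). Acaca, which makes the malonyl-CoA that Fasn uses, stood at 14.1, 13.0 and 10.6 CPM with vehicle and 8.63, 8.27 and 13.0 with trametinib. Trametinib replicate 3 lay within the vehicle range. The log2 fold change of −0.33 (SE 0.19) came with an FDR of 0.212, and without trametinib replicate 3 it was −0.57 with an FDR of 0.0206, with FDRs of 0.0206 to 0.486 over the 13 alternatives.

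The elongases, which lengthen fatty acids in the endoplasmic reticulum, were lower or near the threshold. Elovl1 (ENSMUSG00000006390, chromosome 4, 118428093 to 118432953), of very long saturated chains, stood at 118.7, 127.9 and 110.4 CPM with vehicle and 99.5, 99.0 and 89.6 with trametinib, and it fell by 0.31 (SE 0.08, FDR 0.0144). That call was lost without vehicle replicate 2, its highest library (FDR 0.0610, with FDRs of 0.00243 to 0.0610 over the 13 alternatives). Elovl5, of polyunsaturated chains, stood at 30.4, 32.0 and 33.1 CPM with vehicle and 26.7, 24.6 and 30.1 with trametinib, and the lowest vehicle and highest trametinib library were nearly equal. Its log2 fold change of −0.23 (SE 0.09) came with an FDR of 0.0799, and 0.0408 with the replicate block and 0.0278 without trametinib replicate 3, with FDRs of 0.0278 to 0.242 over the 13 alternatives.

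None of the 3 desaturases passed with edgeR, and 0 did at an unadjusted p under 0.05 or with DESeq2 or limma-voom. At an unadjusted p under 0.05 in edgeR, 1 was higher with all genes kept regardless of count and with the replicate block. The same count held without vehicle replicate 3 and without trametinib replicate 1. Scd1, a stearoyl-CoA desaturase, stood at 0.673, 0.725 and 1.03 CPM with vehicle and 0.827, 1.61 and 1.56 with trametinib (log2 fold change 0.72, SE 0.34, FDR 0.130) on 116 counts in all. Scd2, its paralog, stood at 3.59, 3.90 and 3.62 CPM with vehicle and 3.55, 2.90 and 3.17 with trametinib (log2 fold change −0.21, SE 0.16, FDR 0.330). Scd1 and Scd2 are similar in sequence, and how reads that match both were counted is not given, so both values are uncertain. Fads1, a front-end desaturase of polyunsaturated chains, stood at 17.7, 18.3 and 23.5 CPM with vehicle and 15.5, 16.9 and 23.2 with trametinib, with replicate 3 highest in each group. Its log2 fold change was −0.10 (SE 0.17, FDR 0.699), and it became 0.043 without vehicle replicate 3 and 0.017 without trametinib replicate 1.

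Per kilobase of annotated exon, the highest members were in the fatty acid arm, Elovl1 at 43.7 CPM per kilobase with vehicle and Acly at 24.7. Mvd (14.6), Srebf2 (13.9) and Insig1 (13.2) came next. The relative spread of Mvd (SD 5.14 on a mean of 27.1 CPM, n = 3) was wider than the gaps among these 3, so their order is not firm. The sterol enzymes spanned 0.775 (Fdps) to 14.6 (Mvd) CPM per kilobase. Fasn at 1.77 and Acaca at 0.736 were low beside Acly, and Scd1 at 0.165 was the lowest of the 34. With trametinib Mvd stood at 17.7 CPM per kilobase and Srebf2 at 8.59, and Acss2 went from 1.09 to 2.59, above Fasn at 0.946. The lengths count every annotated exon of all transcripts of a gene (10.16 kilobases for Acss2 and 10.95 for Fasn). Which transcripts were present was not examined, so orders between genes, such as Acss2 and Fasn, are not firm.

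**Figure D5:**
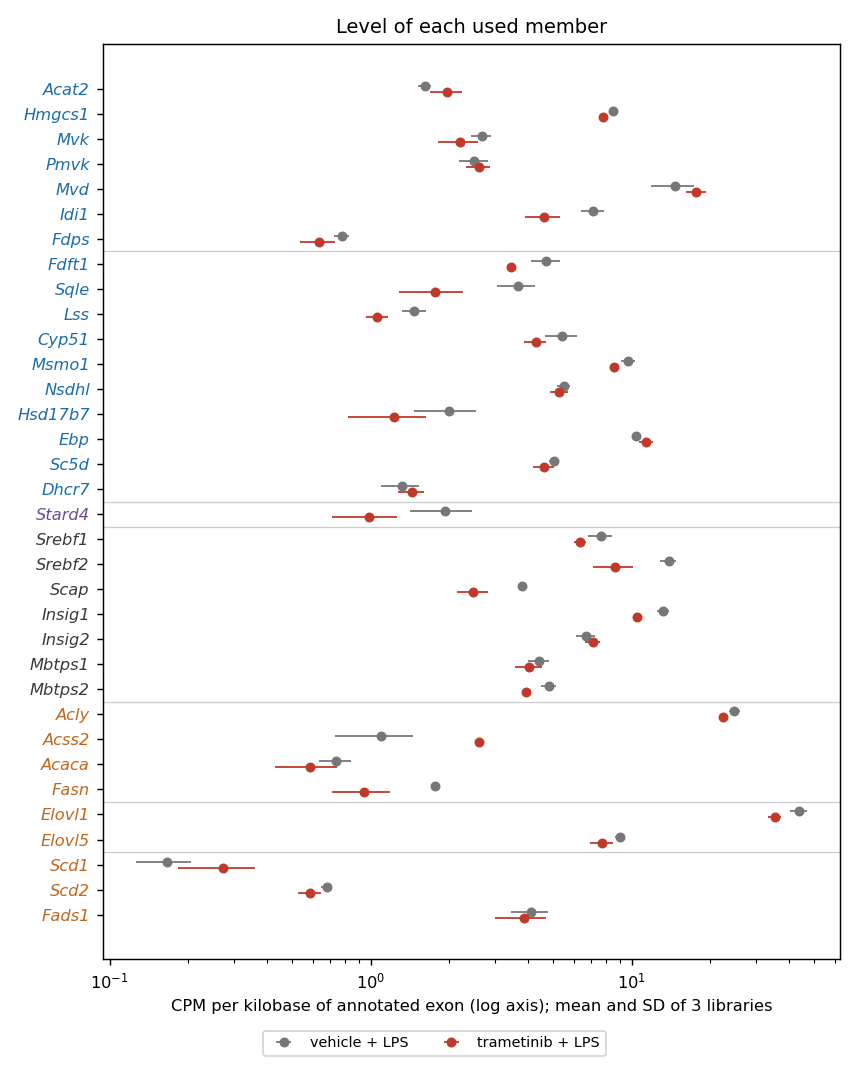
Level of each of the 34 members in CPM per kilobase of annotated exon (log axis), as mean and SD of 3 libraries for vehicle + LPS (grey) and trametinib + LPS (red). Elovl1 and Acly lie at the high end, Scd1 at the low end, and the red point of Acss2 lies right of its grey point, from 1.09 to 2.59.

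Other genes of sterol and isoprenoid handling moved in both directions. Of 17 listed, 4 fell (23.5%), 3 rose (17.6%) and 10 did not pass, close to the 18.4% and 15.8% of all tested genes, with a median log2 fold change of −0.02. Lbr, a sterol reductase that is also a lamin receptor of the nuclear envelope, fell from 6.39 ± 0.438 to 2.18 ± 0.412 CPM (mean ± SD of 3 libraries each; edgeR FDR 0.000462). Rnf145, a ubiquitin ligase that acts on SCAP, fell by 0.65 on the log2 scale (FDR 0.000896), and Coq2, of ubiquinone synthesis, by 0.54 (FDR 0.00771). Soat1, which esterifies cholesterol for storage, rose from 377.9 ± 4.18 to 522.7 ± 34.1 CPM (FDR 0.00225). The other calls were a fall of Pdss1 and rises of Rnf139 and Mylip, and each was lost in several settings. Pdss1 did not pass with DESeq2 (FDR 0.106) or in 5 of the 6 fits that left out a library (up to 0.162). Rnf139 did not pass with DESeq2 (0.0628), with limma-voom (0.0576) or in 5 of those 6 fits (up to 0.164). Mylip did not pass with all genes kept regardless of count (0.0616) or in 4 of those fits (up to 0.0623). The count of risers was 1 without vehicle replicate 1 or 2 or trametinib replicate 2, and 2 without vehicle replicate 3 or trametinib replicate 1.

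Of 21 other genes of fatty acid synthesis and activation, 16 were tested, of which 5 fell (31.3%, against 18.4% of all tested genes), 3 rose (18.8%, against 15.8%) and 8 did not pass. The median log2 fold change was −0.13. Acsl4, which activates polyunsaturated fatty acids, fell from 104.0 ± 6.21 to 44.2 ± 6.88 CPM (mean ± SD of 3 libraries each; edgeR FDR 0.000243). Hsd17b12, the ketone reductase of the elongation cycle, fell by 1.15 on the log2 scale (FDR 0.000896). Hacd4, a dehydratase of the same family of reactions, rose by 0.66 (FDR 0.00153), and Slc25a1, which exports citrate from mitochondria, rose by 0.27 (FDR 0.0129). The Slc25a1 call was lost without vehicle replicate 1 (FDR 0.0645) or trametinib replicate 1 (0.0654). The count of genes that fell was 3 without vehicle replicate 1 or trametinib replicate 2 and 2 without trametinib replicate 1. The count that rose was 1 without vehicle replicate 1 or trametinib replicate 1.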

How the data were processed

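RNA of 6 libraries was sequenced after ribosomal RNA removal, per the labels' protocols. The authors deposited raw counts of reads per gene, 1 column per library. Per the submitters' processing notes, reads were handled on mm10 with featureCounts 1.6.4, HISAT2 2.1.0, R 3.6.0 and DESeq2 1.24.0 (roles not stated). Which annotation was used, whether counting was stranded and what happened to multi-mapped reads is not given in the sources used here. The table's 25354 entries held 310 repeats of 205 identifiers with identical values, which were dropped, leaving 25044 genes, 25033 of them in GENCODE M21 (mm10), the source of symbols, positions and exon lengths.

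Genes were kept by filterByExpr and tested with edgeR 4.0.16 (TMM factors, robust quasi-likelihood, a model of treatment alone with 4 residual df). Each SE was taken as |log2 fold change| over √F. Same-numbered libraries deviated together (correlations 0.339, 0.393 and 0.285, against −0.223 to −0.0724 for different numbers), a hint of pairing from the data that no label states. Deviations were taken from each group's mean, so positive values for equal numbers bring negative ones for different numbers. The negative values are therefore no separate hint. The reported values ignore any pairing, and a replicate block was an alternative. No library was a copy of another (chi-square per gene 6.13 to 29.8).

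The members and lists were chosen with earlier results of these data known. All members are accounted for; the 3 with the smallest p in each role and those whose call moved are given by library, and of 2 further lists the 4 members with the smallest p. On simulated counts over 11207 genes the procedure called 28 of 50 genes changed 1.5-fold, 33 of 46 changed 2-fold and 14 of 11008 unchanged. Alternatives were other size factors and filters, DESeq2 1.42.0, limma-voom (limma 3.58.1), the block and leaving out each library. Software: matplotlib 3.10.9, pandas 2.3.3, Python 3.11.15, NumPy 2.4.6, R 4.3.3.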

Additional observations from a re-analysis of the deposited data

How the results depend on the processing

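Over 34 members and 13 alternatives, 417 of 442 values kept their direction and their side of the threshold, 14 passed where the reported fit did not, 7 no longer passed and 4 changed sign. The sign changes were Fads1, at 0.043 without vehicle replicate 3 and 0.017 without trametinib replicate 1, and Pmvk, at −0.026 without vehicle replicate 2 and −0.030 without trametinib replicate 1. Leaving out 1 library moved Fads1 between −0.29 and 0.043 and Pmvk between −0.030 and 0.16, neither passed in any setting, and the cause was not tested. All 7 lost calls (Lss, Mbtps2 and Stard4 without trametinib replicate 1 or 2, Elovl1 without vehicle replicate 2) came from fits with 5 libraries. With the replicate block, 1 sterol gene rose (Mvd) and 16 members changed in place of 12. Over all genes tested, 4836 of 11286 changed with the block, against 3869 in the reported fit. The paired fit changed 4 member calls (Cyp51, Hsd17b7, Elovl5 and Mvd) and no other member call. Leaving out 1 library gave 0 to 1 sterol genes higher, 3 to 6 sterol genes lower, 1 to 4 fatty acid genes lower and 3 to 5 regulators lower. Over all genes it gave 2428 to 4663 changed (2428 without trametinib replicate 1 and 2538 without vehicle replicate 1), 1068 to 2210 higher and 1360 to 2453 lower. Counting only Acly, Acss2, Acaca and Fasn as the fatty acid arm left 1 gene lower. A minimum of 10 or 600 counts would have used 35 or 29 members. Depth limits Elovl6, Fads2 and Scd1, with 9, 45 and 116 counts in all.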
